A study of Mus musculus with 16 samples.

Results

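Fos, Fosb, Jun, Junb, Egr1, Ier2, Klf4, Klf6, Atf3 and Nr4a1 are immediate early response genes, and they were taken by symbol as 10 of the 14498 gene rows of a single-cell count matrix from embryonic mouse forebrain. The cells came from wild-type CD1 mice at embryonic day 15.5, were processed with the Illumina Bio-Rad SureCell droplet workflow, and are described as forebrain in the sample labels and as cerebral cortex in the series' design text. Apart from their titles, all 16 samples carry the same labels, and no treatment, genotype or time differs between them. The 5777 cells form 1 pooled matrix whose cell names point to no sample, so no value below has a replicate, no test was possible, and each 95% interval covers counting error only.

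Immediate early genes are transcribed within minutes of a stimulus from factors already present in the cell, without new protein synthesis, and their RNAs and proteins are short-lived. Growth factors, neuronal activity and cellular stress reach them through kinase cascades that act on serum response factor with its ternary complex partners and on CREB. In brain tissue they are also known to be switched on by the enzymatic and mechanical steps of dissociation, microglia being among the cells that respond. No undissociated tissue was among the samples used here and the dissociation procedure is not given in the sources used here, so RNA present in the embryo and RNA made during cell preparation cannot be told apart.

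The genes fall into 4 groups by the proteins they encode. Fos, Fosb, Jun and Junb are basic leucine zipper proteins that pair as AP-1 dimers, and Atf3 is a stress-induced member of the same superfamily. Egr1, Klf4 and Klf6 are zinc finger factors that bind GC-rich DNA. Nr4a1 is an orphan nuclear receptor, and Ier2 is a small nuclear protein grouped with these genes for its rapid induction.

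RefSeq promoter windows (GRCm38.p6, from 250 bases before to 50 bases after a gene's start) were matched for 8 of the 10 genes, all but Egr1 and Ier2. The letters TGACG on either strand, the core of the cyclic AMP response element that CREB and ATF proteins bind, were found in 6 of the 8 windows and in 20.8% of all 32851 windows of that length. The EGR site GCGNGGGCG, searched on both strands, was found in 3 of 8 (Fosb, Klf4 and Nr4a1) and in 5.55% of all windows. The letters TATAAA, searched on the gene's strand only, were in the windows of Fos and Junb (there just after the start, outside the bases printed) and in 8.32% of all. The full element TGACGTCA, the AP-1 site TGANTCA and the CArG box that serum response factor binds were in none of the 8, against 1.79%, 7.81% and 1.63% of all windows. Only these fixed patterns were searched, and only to 250 bases before the start. Sites farther off or with variant letters were not looked for, so an absence here does not mean that a gene lacks such a site. For Atf3 and Nr4a1 the RefSeq start used lies inside the span that GENCODE M21 gives the gene (chr1:191170296-191218039 and chr15:101254269-101274795), so theirs is 1 of several annotated starts. For Junb the RefSeq start used lies upstream of the GENCODE M21 start (chr8:84978718). Its TATAAA, just after the RefSeq start, therefore lies before the GENCODE start. The 120 bases before the start of 6 of the genes are printed 5′ to 3′ on the gene's strand, to show where these letters lie in the 2 Fos genes, in Junb, Atf3 and Nr4a1, and to set beside them Jun, whose window holds none of them. Capitals mark TGACG or its reverse complement, the EGR site or its reverse complement, and TATAAA, and the TGACG core overlaps no EGR site.
Fos, chr12:85473770-85473889, plus strand: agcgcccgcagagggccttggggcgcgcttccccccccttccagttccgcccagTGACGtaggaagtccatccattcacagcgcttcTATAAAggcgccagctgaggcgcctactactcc
Fosb, chr7:19310046-19310165, minus strand: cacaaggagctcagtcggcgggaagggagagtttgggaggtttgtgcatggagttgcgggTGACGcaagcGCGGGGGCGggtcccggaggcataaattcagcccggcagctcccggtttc
Junb, chr8:84978749-84978868, minus strand: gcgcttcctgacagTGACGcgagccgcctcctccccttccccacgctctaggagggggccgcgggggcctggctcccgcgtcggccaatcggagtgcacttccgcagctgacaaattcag
Atf3, chr1:191183334-191183453, minus strand: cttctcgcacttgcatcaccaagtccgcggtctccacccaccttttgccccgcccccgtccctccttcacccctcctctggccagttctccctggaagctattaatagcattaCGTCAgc
Nr4a1, chr15:101266726-101266845, plus strand: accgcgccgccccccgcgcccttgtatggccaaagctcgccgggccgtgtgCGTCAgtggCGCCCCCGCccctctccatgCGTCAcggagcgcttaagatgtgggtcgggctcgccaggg
Jun, chr4:95052223-95052342, minus strand: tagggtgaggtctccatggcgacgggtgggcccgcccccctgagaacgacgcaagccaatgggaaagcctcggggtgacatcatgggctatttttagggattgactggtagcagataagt

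Depth was 1111 to 17398 UMIs per cell (unique molecular identifiers, which count captured RNA molecules), with a median of 3258. After 4 globin-rich cells were set apart, the other 5773 cells formed 25 clusters, of which 20 took a cell type name from marker genes and 5 clusters with 934 cells stayed unnamed. The order of the cells in the matrix falls into 2 runs, 3651 cells that hold all 1363 UMIs of Y-linked genes and 2122 cells that hold none, with 4 cells between them. The labels name neither run. Their median depths were 3162 and 3412 UMIs. The first run held 299 of the 314 ganglionic eminence progenitor-like cells, and the second 299 of the 322 upper layer neuron-like cells. Of the levels by class, 44 of 140 moved outside their interval in the first run alone and 76 of 130 in the second, so pooled levels mix unequal runs, and levels by run are given for the main comparisons where they moved. Of the 76 choroid plexus-like cells, 26 (34.2%) had a UMI of any of the 8 choroid plexus markers, and cortical hem markers scored second in their cluster. All 11 endothelial markers were found among the 29 meningeal fibroblast-like cells. Endothelial markers were in 26 of these cells, mural markers in 24 and meningeal fibroblast markers in 21. Both classes are therefore mixed, and their levels are not those of 1 cell type. The genes described here were kept out of the variable genes used for clustering, and levels by class are a description.

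The 10 genes differed widely in how often they were caught. Egr1 (4989 UMIs), Jun (4683) and Fos (4438) were found in 31.4%, 32.6% and 25.5% of cells. Ier2 followed with 2204 UMIs in 22.2% of cells and Klf6 with 1427 in 15.4%. Junb (618 UMIs), Fosb (502), Nr4a1 (296), Atf3 (174) and Klf4 (153) were sparse, in 1.09% to 6.57% of cells. Counts were not scaled to gene length, so these totals do not rank the genes by expression.

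UMIs of the sparse genes were gathered in few cells. The 50 cells with the most Atf3 held 92.5% of its UMIs, and the 50 with the most Jun held 12.5% of Jun's. The 18 microglia-like cells, brain-resident macrophages, held 61.5% of all Atf3 UMIs, 16.2% of Junb's and 13.2% of Nr4a1's, but 0.683% of Jun's. The 765 radial glia-like cells, the stem cells that line the ventricle and give rise to cortical neurons, held 40.5% of Jun's UMIs, 39.2% of Klf4's, 33.3% of Fos's and 18.1% of Egr1's.

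Fos, the AP-1 subunit most used as a marker of recent stimulation, had its highest levels outside the neurons. Its level in CPM, the gene's UMIs over those of the class, scaled to a class total of 1000000, was 3804 (95% interval 3362 to 4287) in microglia-like cells, 719 in meningeal fibroblast-like cells, 686 in choroid plexus-like cells and 514 (488 to 540.4) in radial glia-like cells. It was 262 in the 401 intermediate progenitor-like cells, the transit cells between radial glia and neurons, 188 in interneuron-like cells and 124 in migrating excitatory neuron-like cells. The other 7 classes lay between 79.0 CPM in basal forebrain neuron-like cells and 39.5 CPM in deep layer neuron-like cells, and the interval of each of these classes overlapped that of its neighbour in the order. Meningeal fibroblast-like and choroid plexus-like cells also did not differ beyond their intervals, whereas each step from choroid plexus-like down to migrating excitatory neuron-like cells was wider than the intervals in the pooled values. The last of these steps rested on the second run: Fos was at 80.7 CPM in interneuron-like and 114 CPM in migrating cells of the first run, and at 392 and 140.1 CPM in the second. The step before it did not hold in the second run, where Fos was higher in interneuron-like than in intermediate progenitor-like cells.

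Jun, a partner of Fos in AP-1, had a different order and was led by radial glia-like cells. Its level was 659 CPM (629 to 689) there, 454 (311 to 641) in microglia-like and 433 in meningeal fibroblast-like cells, and these intervals overlapped their neighbours'. Intermediate progenitor-like cells followed at 182 CPM, Cajal-Retzius cell-like cells at 180.4 and choroid plexus-like cells at 177. The other neurons were between 158 CPM in upper layer neuron-like cells and 44.5 CPM in basal forebrain neuron-like cells, the latter from 9 UMIs.

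Egr1, a zinc finger factor downstream of the mitogen-activated kinases, was highest in microglia-like cells at 2867 CPM (2485 to 3291). Next came intermediate progenitor-like cells at 599.5 CPM (557 to 644), whose interval overlapped those of meningeal fibroblast-like cells at 541 and choroid plexus-like cells at 506. Radial glia-like cells (314 CPM), striatal neuron-like cells (269.7) and migrating excitatory neuron-like cells (249) overlapped their neighbours in turn. Interneuron-like cells stood at 199.8 CPM and ganglionic eminence progenitor-like cells at 133, and deep layer neuron-like cells were lowest at 60.9 CPM.

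Ier2 followed Egr1 in part. It was at 1022 CPM in microglia-like, 263 in choroid plexus-like, 203 in intermediate progenitor-like and 178 in meningeal fibroblast-like cells. Radial glia-like cells had 170.2 CPM and migrating excitatory neuron-like cells 143. In the 3 layered or later cortical neuron classes it was 27.6 to 54.2 CPM, and interneuron-like cells were lowest at 27.3 CPM, so for Ier2 the migrating cells stood closer to the progenitors than to the later neurons.

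The other 6 genes were all highest in microglia-like cells. There Atf3 was at 1519 CPM, Junb at 1419, Fosb at 823, Klf6 at 653, Nr4a1 at 554 and Klf4 at 128. The Klf4 value came from 9 UMIs, and its interval (58.4 to 242) overlapped that of meningeal fibroblast-like cells (31.8 CPM, 10.3 to 74.3). Klf6, a Krüppel-like factor, had nearly the same level in upper layer neuron-like cells (121 CPM, 104 to 140.2) as in radial glia-like cells (117 CPM, 105 to 130.6) and was low in intermediate progenitor-like cells at 35.0. Klf4, a Krüppel-like factor known for its part in pluripotency, was at 20.8 CPM in radial glia-like cells and at 0.564 to 5.72 CPM in the neurons, intermediate and ganglionic eminence progenitor-like and choroid plexus-like cells with a UMI of it. Atf3 had 27 UMIs in radial glia-like cells, 11 in choroid plexus-like and 5 in meningeal fibroblast-like cells, and at most 3 in any other class besides microglia-like cells. Among the unnamed clusters, Klf4 was at 31.7 CPM (20.5 to 46.8) in the 208 cells led by Olig2 and Olig1, whose interval overlapped that of radial glia-like cells, and at 12.4 CPM in 226 cells led by cell cycle genes. In the same 2 clusters Fos was at 301 and 234 CPM and Jun at 372 and 255 CPM, below radial glia-like cells for both genes. Junb was spread more evenly over cortical cells, from 29.9 CPM in radial glia-like to 13.5 CPM in deep layer neuron-like cells.

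**Figure D1:**
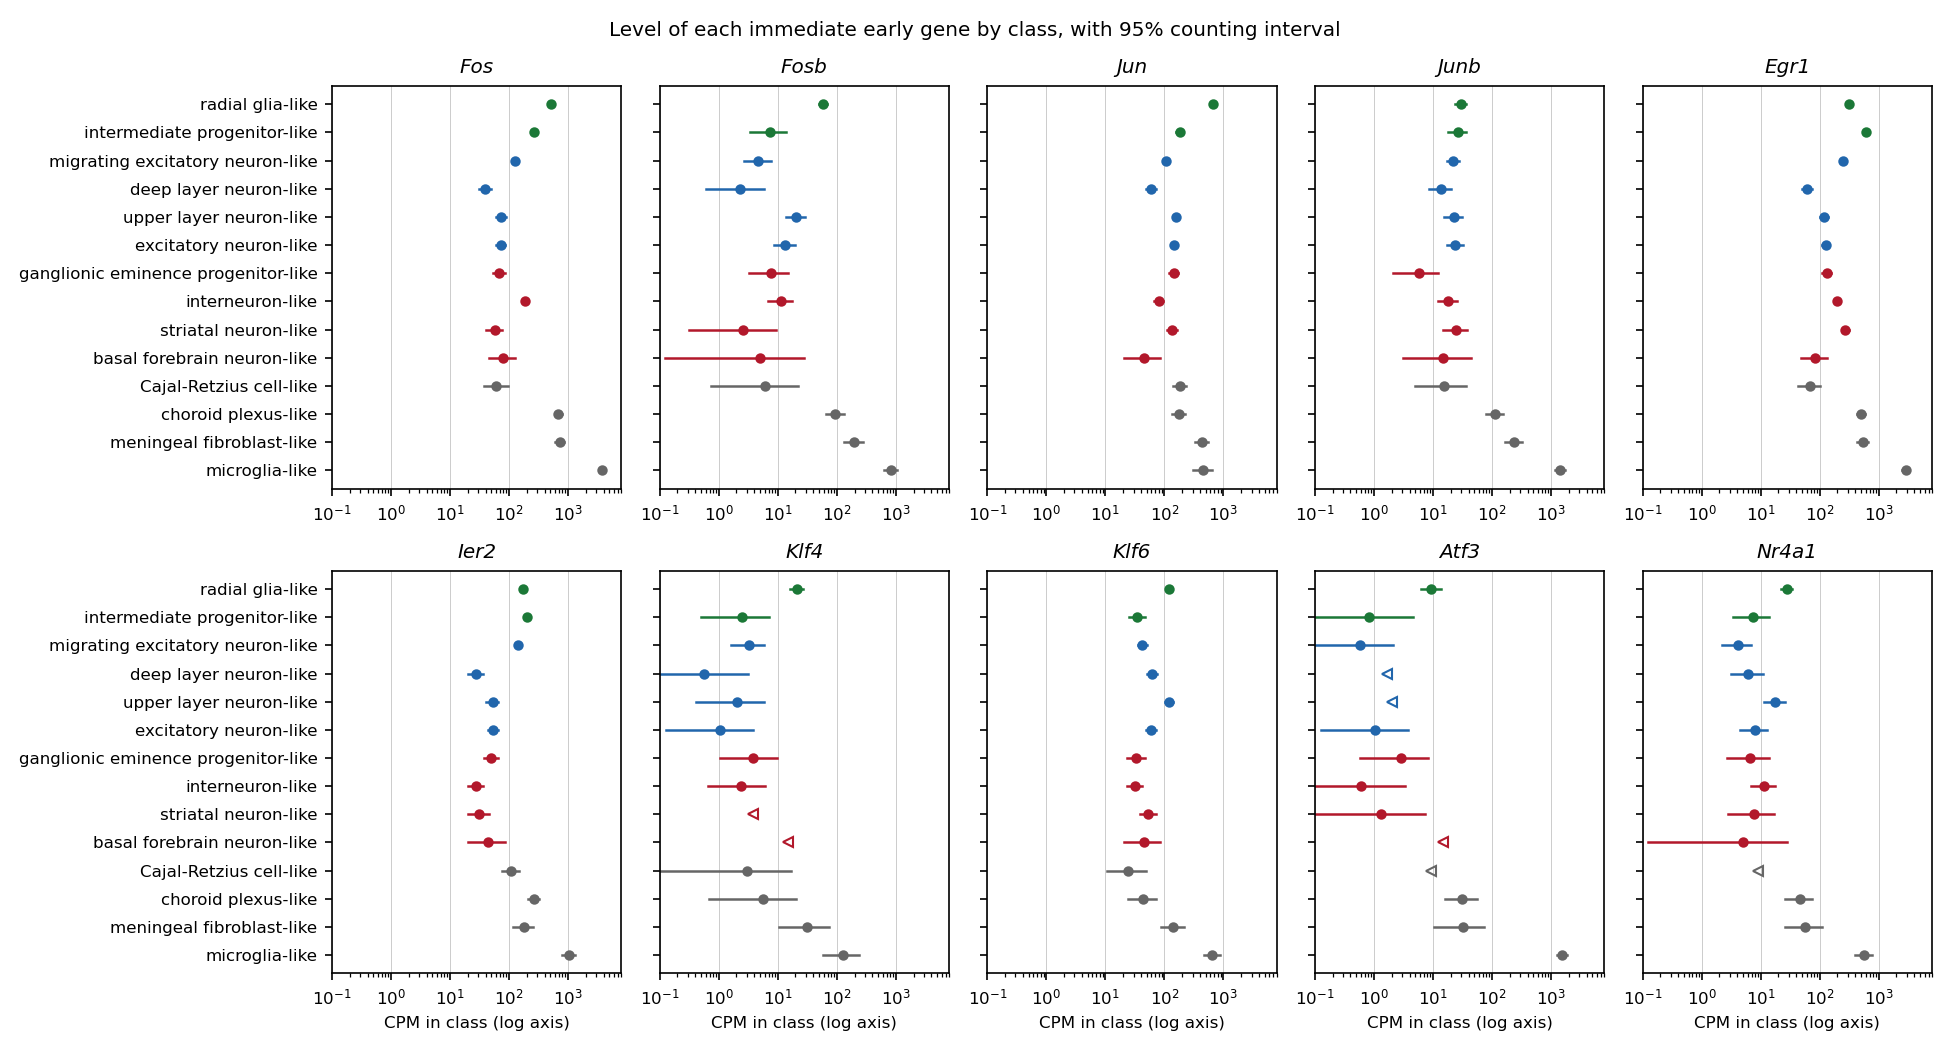
Level of each of the 10 genes in 14 classes, as CPM on a log axis, with bars for the exact Poisson 95% interval and open triangles at the 3-count limit where a class has no UMI; progenitors of the cortex are green, its excitatory neurons blue, ventral classes red and the rest grey. Microglia-like cells lie farthest right for 9 genes, and for Jun radial glia-like cells do, at 659 CPM.

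Radial glia-like against excitatory neuron-like cells compares cortical stem cells with their older neuronal progeny, the 1156 deep layer, upper layer and other excitatory neuron-like cells pooled. All 9 of the genes measured were lower in the neurons by at least 1.5-fold, where a gene counts as measured with at least 50 UMIs over both classes. Of all 10297 genes measured there, 31.2% were lower and 23.98% higher by that limit. Atf3, at 27 UMIs against 2, was below the minimum.

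Fos was at 514 CPM in radial glia-like and 61.4 CPM in excitatory neuron-like cells, 8.36-fold lower (7.40 to 9.47), and Klf4 was 17.9-fold lower (7.75 to 50.6) on 60 against 6 UMIs. Jun was 5.55-fold and Fosb 5.06-fold lower, Ier2 3.82-fold, Egr1 3.09-fold and Nr4a1 2.72-fold. The sizes for Fosb and Nr4a1 depended on the run. Fosb was at 48.6 CPM in radial glia-like and 3.43 CPM in excitatory neuron-like cells of the first run (82 and 8 UMIs) and at 71.3 and 18.1 CPM in the second, and Nr4a1 at 8.30 and 4.72 CPM and at 54.5 and 14.6 CPM. Junb and Klf6 were both 1.51-fold lower, just past the limit, and their intervals crossed it (1.12 to 2.03 and 1.30 to 1.75). Junb was inside the limit in the first run (19.6 and 14.6 CPM) and Klf6 in the second (130 and 88.5 CPM). Klf6 was not lower in upper layer neuron-like cells alone, at 121 CPM against 117 in radial glia-like cells. In the pooled classes the 9 genes therefore went in 1 direction, with sizes from just past the limit to more than 10-fold. Fos was lower in each run alone, at 330.3 CPM in radial glia-like and 31.8 CPM in excitatory neuron-like cells of the first run and at 773 and 86.0 CPM in the second.

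Lists of related genes were not lower as a whole in that comparison. Among other immediate early genes, 4 of 13 measured were lower and 6 higher: Cyr61, a matricellular protein gene of the same early wave, was 57.3-fold lower, and Plk2, an activity-regulated kinase, was at 21.2 CPM in radial glia-like and 254 CPM in excitatory neuron-like cells. Of 16 other leucine zipper genes that can pair with Fos or Jun relatives, 4 were lower and 2 higher, among them Fosl2, a Fos relative, at 11.8 CPM in radial glia-like and 96.4 CPM in excitatory neuron-like cells. Feedback regulators, which shorten the early response, were lower in 7 of 17 and higher in 4, with Zfp36l1, an RNA decay factor, 46.4-fold lower. Heat shock and stress genes were lower in 5 of 14 and between the limits in 7, and the metallothionein Mt1 was 44.6-fold lower. The median log2 ratio was -1.94 over the 9 genes and -0.14 over all genes measured.

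All 20 genes of the G2 and mitosis list were lower in excitatory neuron-like cells. Mural cell markers summed to 67.1 CPM in radial glia-like and 4.67 CPM in excitatory neuron-like cells, with 6 and 5 of the 9 markers found, and microglia markers to 24.0 and 19.2 CPM, with 7 and 9 of 12 found. C1qa, C1qc, Csf1r, Aif1 and Ctss had no UMI in radial glia-like cells. The part of these in the result was not tested.

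The step from radial glia-like to intermediate progenitor-like cells split the genes. Of the 9 measured, 6 were lower (against 21.4% of all 9081 genes measured) and 1, Egr1, was higher (against 14.4%). Klf4 was 8.54-fold lower (2.79 to 42.6), Fosb 7.93-fold, Nr4a1 3.75-fold, Jun 3.62-fold, Klf6 3.36-fold and Fos 1.96-fold. For the 3 sparse genes among these the size moved with the run, though not the direction. Nr4a1 was at 8.30 CPM in radial glia-like and 5.21 CPM in intermediate progenitor-like cells of the first run (14 and 3 UMIs) and at 54.5 and 9.17 CPM in the second. Fosb was at 48.6 and 3.48 CPM and then at 71.3 and 10.7 CPM, and Klf4 at 16.01 and 3.48 CPM and then at 27.7 and 1.53 CPM, the intermediate progenitor-like values resting on 7 UMIs or fewer. Ier2 was 1.19-fold higher, inside the limits.

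Egr1 stood 1.91-fold higher (1.73 to 2.10) at this step, up from 314 to 599.5 CPM. The direction was found in both runs, from 249.7 to 439.8 CPM in the first and from 406 to 740.1 CPM in the second, but it depended on where the border between the classes was drawn. With 1000 in place of 2000 variable genes, 94 of the 401 intermediate progenitor-like cells joined the radial glia-like class and the levels became 452 CPM in radial glia-like and 380.4 CPM in intermediate progenitor-like cells. Without the 5% of cells with the highest doublet scores they were 411 and 483 CPM, in the same direction but inside the limit.

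Junb had no single direction at this step. In the first run it was at 19.6 CPM in radial glia-like and 38.2 CPM in intermediate progenitor-like cells, and in the second at 44.5 and 15.3. Its pooled 1.15-fold difference therefore joined opposite values. Among the other lists, the antiproliferative feedback gene Btg2 was 3.23-fold higher in intermediate progenitor-like cells and the early gene Ier5 2.20-fold higher, and Mt1 was 5.42-fold lower.

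From intermediate progenitor-like to migrating excitatory neuron-like cells, 3 of the 6 genes measured were lower, against 16.01% of all genes measured. Egr1 was 2.41-fold lower (2.18 to 2.66), Fos 2.11-fold and Jun 1.74-fold, and Ier2 was 1.42-fold lower, inside the limit. In the first run alone only Egr1 passed it, at 439.8 CPM in intermediate progenitor-like and 225 CPM in migrating cells. Fos was at 170.3 and 114 CPM there and Jun at 163 and 118 CPM. None of the 6 was higher, against 13.9% of all genes, whereas 7 of 10 other immediate early genes were, led by Myc, which was at 3.25 CPM on 4 UMIs and then at 30.7 CPM, 9.43-fold higher.

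In the ventral lineage the pooled values went in both directions. This comparison does not start from radial glia-like cells as the cortical ones do. Its progenitor-like cluster was led by Dlx2, and the unnamed cluster led by Olig2 and Olig1 was not part of it. Between the 314 ganglionic eminence progenitor-like cells and the 682 interneuron-like cells, 5 genes were measured. Fos (68.2 to 188 CPM, 2.75-fold) and Egr1 (1.51-fold) were higher and Jun (1.79-fold) and Ier2 (1.84-fold) lower, against 21.4% of all genes higher and 20.1% lower. The higher calls rested on the runs, since 299 of the progenitor-like cells were in the first. Within that run Fos was at 69.6 CPM in progenitor-like and 80.7 CPM in interneuron-like cells, Egr1 was at 131 and 193 CPM, and no gene was higher past the limit. The lower genes stayed lower there, Jun at 144.2 and 59.8 CPM and Ier2 at 50.7 and 23.6 CPM. With a finer clustering (resolution 2) the Fos log2 ratio became -0.12.

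Interneuron-like cells held 3 clusters that differed in Fos. It was at 353 CPM (305 to 405) in the cluster led by Sst, at 121 in the cluster led by Maf and Lhx6, and at 87.7 in the cluster led by Sp8. In the first run the same clusters stood at 139, 60.4 and 78.4 CPM, and in the second at 469, 350.2 and 132. The Sst cluster was the highest in each run, but its interval overlapped the next cluster's in both.

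Microglia-like cells stood apart from all others. All 10 genes were at least 1.5-fold higher in the 18 cells than in the other 5755 cells pooled, against 20.9% of 11713 genes measured, with 26.5% of genes lower. Atf3 was 488-fold higher (356 to 672), Junb 59.0-fold, Nr4a1 46.4-fold, Fosb 39.9-fold, Fos 19.6-fold, Egr1 12.9-fold, Ier2 10.3-fold and Klf6 10.2-fold. Klf4 was 19.1-fold higher on 9 UMIs in the microglia-like cells. Jun was 2.10-fold higher (1.44 to 2.97), its interval crossing the limit.

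Feedback regulators were also higher in microglia-like cells, in 14 of 19 measured and lower in none, with Zfp36, a decay factor for inflammatory RNAs, at 4173 CPM against 13.2. Other immediate early genes were higher in 11 of 22, Klf2 most at 224-fold, and heat shock and stress genes in 5 of 17. The cells carried all 12 microglia markers, which summed to 20764 CPM against 16.4 CPM in the other cells, and the chemokine gene Ccl3 led their cluster. Both of the macrophage markers present in the matrix were found too, at 951 CPM in sum. The first run held 13 of these cells and the second 5, with Fos at 4655 and 1716 CPM and Nr4a1 at 280 and 1225 CPM, so even this class differed between the runs.

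RNA free in the droplets was gauged with genes that other classes should lack. C1qc was found in 15 of 18 microglia-like cells and in 0 of 765 radial glia-like cells (upper limit 0.481%, Clopper-Pearson), at median depths of 3880 and 3323 UMIs. C1qb was found in 14 of the 18 and in 1 of the 765 (0.131%). At least 1 of the 12 microglia markers was found in 7.19% of radial glia-like and 6.49% of excitatory neuron-like cells. Ttr, which choroid plexus cells make in large amounts, was found in only 12 of 76 choroid plexus-like cells (15.8%). It was found in 3.01% of radial glia-like, 1.56% of excitatory neuron-like and 4.25% of interneuron-like cells, the last 2 at median depths of 4377 and 2266 UMIs.

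Cells with at least 1 UMI of any of the 10 genes were common. With each cell thinned to 1000 UMIs, to set cells of unequal depth on 1 scale, their share was 43.0% (41.7 to 44.2, Clopper-Pearson) over the whole data set, and 69.2% without thinning. Radial glia-like cells reached 73.9% (93.2% unthinned), intermediate progenitor-like cells 53.6% (78.6%), migrating excitatory neuron-like cells 40.3% (65.7%) and deep layer neuron-like cells 22.0% (49.3%). All 18 microglia-like cells had a UMI of at least 1 of the genes.

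UMIs of 3 or more of the genes in a cell were much rarer. After thinning they were found in 4.49% of all cells, in 13.2% of radial glia-like, 6.48% of intermediate progenitor-like and 2.33% of migrating excitatory neuron-like cells, and in 1 of 460 deep layer neuron-like cells. In microglia-like cells the share was 94.4% (17 of 18) and in meningeal fibroblast-like cells 37.9% (11 of 29). No class is known to lack these genes, so no share serves as their background. C1qb, C1qc and Ttr mark classes of only 18 and 76 cells, so their values do not gauge that background for genes caught in larger classes.

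**Figure D2:**
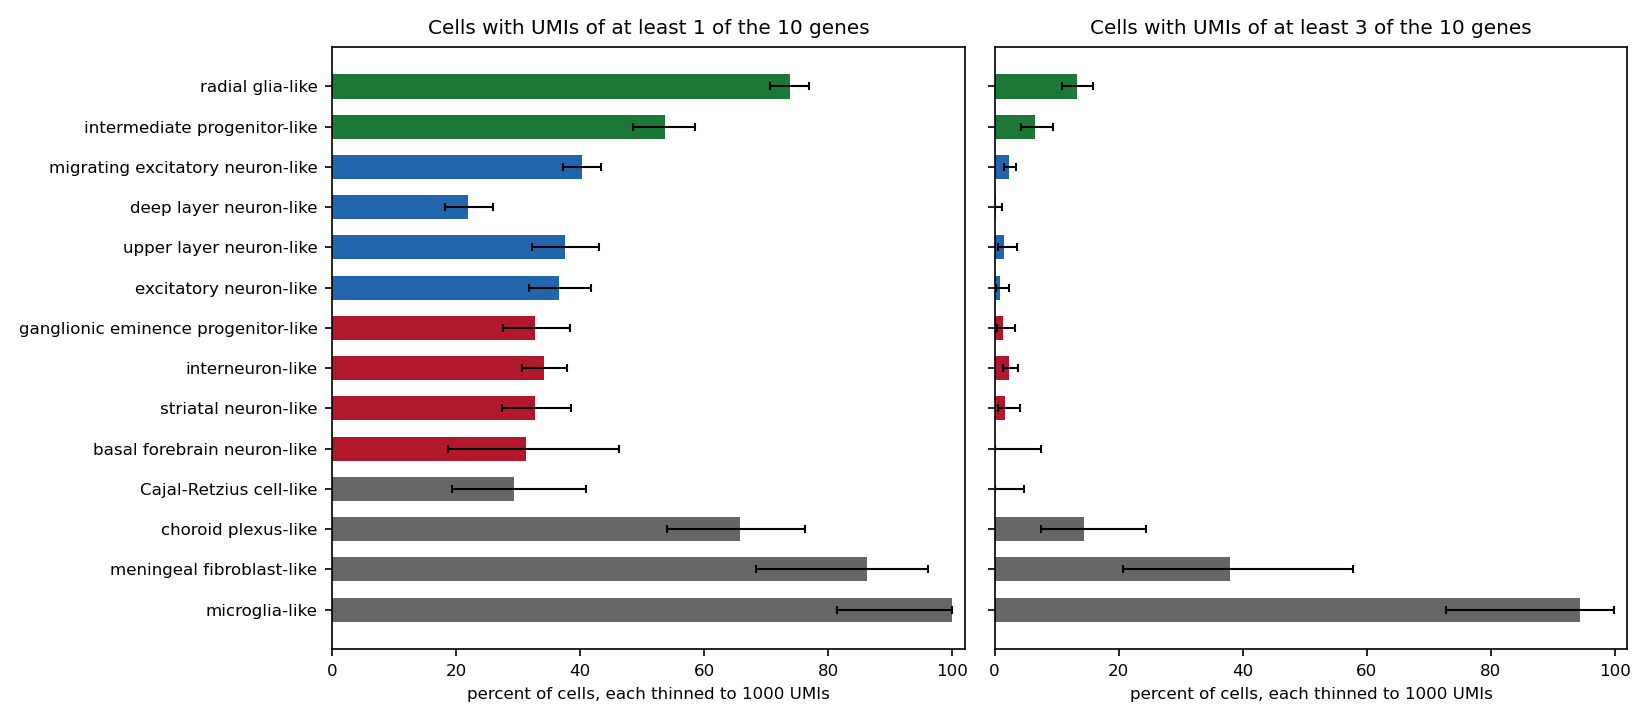
Percent of cells with UMIs of at least 1 (left) and at least 3 (right) of the 10 genes after each cell was thinned to 1000 UMIs, by class, with exact Clopper-Pearson 95% intervals. On the left deep layer neuron-like cells are lowest at 22.0% and microglia-like cells are at 100%, and on the right only microglia-like, meningeal fibroblast-like, choroid plexus-like, radial glia-like and intermediate progenitor-like cells pass 5%.

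The 10 genes correlated weakly but in 1 direction over single cells. Pearson's r of log-scaled counts over 5773 cells was above 0 in all 45 pairs, with a median of 0.126 and a range of 0.035 to 0.318, and it was at least 0.1 in 31 pairs. Fos and Fosb had the highest value, followed by Fos and Egr1 (0.294), and Klf4 and Klf6 the lowest. The cells share libraries, depth and class make-up, and these values are a description with no test. Counts this sparse hold r down, and a low value is no sign that genes are unlinked.

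Much of the correlation went with the classes. With each cluster's mean removed, the median fell to 0.058 with 12 pairs at 0.1 or more, and Fos with Fosb (0.246) and Fos with Egr1 (0.242) kept the highest values. Egr1 and Ier2 stood at 0.187, Junb and Egr1 at 0.166, and Klf4 and Klf6 at 0.0031. By run, the median with cluster means removed was 0.050 in the first and 0.070 in the second. The highest pair was Fos and Fosb (0.245) in the first run and Fos and Egr1 (0.258) in the second. Without the 18 microglia-like cells, and with no centring, the median was 0.096, and the pairs with Atf3 moved most: Atf3 and Nr4a1 went from 0.265 to 0.066 and Junb and Atf3 from 0.264 to 0.076. With all cells thinned to 1000 UMIs the median was 0.073.

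**Figure D3:**
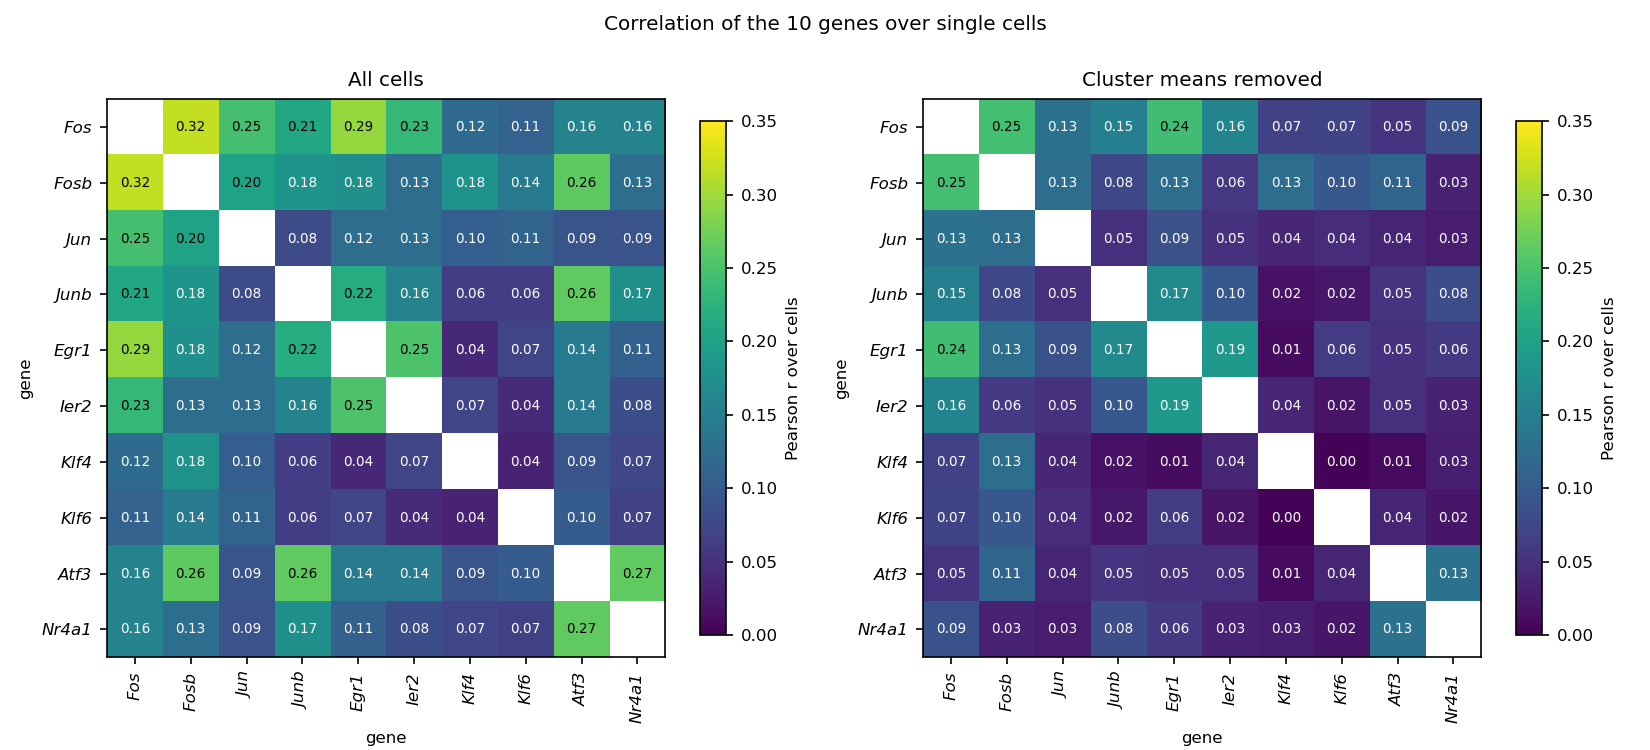
Pearson r over 5773 cells for each pair of the 10 genes, over all cells (left) and with cluster means removed (right), on 1 colour scale from 0 to 0.35. Pairs among Fos, Fosb, Egr1, Ier2 and Junb hold the 6 brightest squares on the right, with Fos and Fosb at 0.246, while the squares of Atf3 with Junb and Fosb darken.

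Within single classes Fos with Egr1 or Fosb often led, but not in all. Fos and Egr1 had r of 0.345 over the 401 intermediate progenitor-like cells, 0.292 over radial glia-like cells and 0.268 over migrating excitatory neuron-like cells. Fos and Fosb had r of 0.301 over radial glia-like and 0.299 over ganglionic eminence progenitor-like cells. Over the 1156 excitatory neuron-like cells no pair reached 0.2, the highest being Fosb and Egr1 at 0.198. In interneuron-like cells the highest was Fos and Fosb at 0.164, and in striatal neuron-like cells Junb and Egr1 at 0.291, where 17 of the 36 pairs that could be computed were above 0. The median over the pairs in these 7 classes was -0.006 to 0.080. Cells of both runs are pooled in these values, and the part of the run in them was not tested.

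Counts of cells with UMIs of both genes of a pair showed the same. After thinning to 1000 UMIs, 53 cells had both Fos and Fosb, 1.87 times (1.40 to 2.45) the number obtained by multiplying the 2 genes' shares within each cluster. Fos and Egr1 shared 216 cells, 1.51 times that product (1.31 to 1.72), and Junb and Egr1 56 cells, 1.78 times. Of the 37 pairs with a product of at least 5 cells, 34 exceeded it, 12 with an interval above 1, and the median was 1.24 times. The shares were taken by cluster and not by run.

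Genes outside the 10 that went most with their mean over cells were led by Cyr61 (r 0.390), an early gene from the other list, and then by Hes1 (0.375), Sparc (0.373), Zfp36l1 (0.365), Vim (0.328), Aldoc (0.325) and Sox9 (0.318). Hes1, Vim, Aldoc and Sox9 are known for expression in radial glia. With cluster means removed Cyr61 (0.215), Hes1 (0.189) and Sparc (0.160) remained the first 3, and Klf2, Btg2 and Jund, all from the lists of early, feedback and leucine zipper genes, came into the first 10. As summed lists with cluster means removed, feedback regulators had r of 0.232 with the mean of the 10 genes, other immediate early genes 0.179, other leucine zipper genes 0.149 and heat shock and stress genes 0.116. Single genes at 0.1 or more numbered 4, 2, 2 and 1 in these lists, of 19, 19, 16 and 16 genes found in at least 1% of cells. Over all genes they numbered 33, with 11223 genes found in that share of cells. The median gene of each list had r of 0.049, 0.029, 0.032 and 0.025, against 0.0095 over all genes. Upstream kinases and factors stood at 0.052 and G2 and mitosis genes at -0.017.

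The runs of cells differed in some of the genes. In the second run Fos was at 297 CPM against 151 in the first, 1.97-fold higher (1.86 to 2.09), and Nr4a1 at 22.8 against 8.30, 2.74-fold higher (2.16 to 3.50). These 2 of 10 genes passed the limit, against 5.25% of all 11713 genes measured, and none was lower past it, against 8.21%. Egr1 was 1.44-fold higher, Jun 1.19-fold, and Klf4 was at 7.11 and 7.05 CPM. Without microglia-like cells Fosb passed too, at 1.62-fold, against 5.28% of genes.

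The Fos difference had the same direction in each class that could be compared. Of the 6 classes with at least 50 cells in each run, Fos was higher in the second run in 6, by 1.23-fold in migrating excitatory neuron-like cells to 4.86-fold in interneuron-like cells, and 5 passed the limit. By class, 6.97% (radial glia-like), 7.17% (intermediate progenitor-like), 5.76% (migrating), 6.32% (deep layer), 7.14% (the cluster of other excitatory neuron-like cells) and 8.98% (interneuron-like) of all genes did so. In radial glia-like cells it was at 330.3 CPM (303 to 359) and 773 CPM (724 to 824), and in deep layer neuron-like cells at 14.8 CPM on 14 UMIs and 67.5 CPM on 56 UMIs. Egr1 was higher in 6 of 6 classes too, by 1.09-fold to 1.84-fold, with 4 past the limit. By cluster, each was higher in 10 of the 11 with at least 50 cells in each run. The exceptions were 1 of the clusters of migrating cells for Fos, at 0.923 times the first run's level, and an unnamed cluster with excitatory neuron markers for Egr1, at 0.917 times.

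For the other genes the direction varied with the class or few classes had enough UMIs. Counting any ratio above 1, Jun was higher in the second run in 4 of 6 classes, Klf6 in 4 of 5 and Ier2 in 3 of 4. The interval lay above 1 in 2 classes for Jun, 1 for Klf6 and 3 for Ier2, and each gene passed the 1.5-fold limit in 1 class. Jun was 0.687 times its level of the first run in migrating excitatory neuron-like cells and was at 59.8 CPM in the first and 119.8 CPM in the second run in interneuron-like cells. Junb was 2.27 times as high in radial glia-like and 0.548 times in migrating excitatory neuron-like cells, and Ier2 in radial glia-like cells was 0.904 times as high. Nr4a1 had enough UMIs only in radial glia-like cells, where 14 UMIs in 12 of 467 cells stood against 65 UMIs in 47 of 298 cells, 6.57-fold higher (3.65 to 12.7). In radial glia-like cells 5 of the 9 genes measured were higher, against 6.97% of all genes. Of 13 heat shock and stress genes measured there, 0 were higher and 1 was lower. A list this short cannot be set apart from the 6.97% of all genes that were higher.

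The make-up of the runs differed as well. All 20 genes of the G2 and mitosis list were lower in the second run over all cells, though none passed the limit within radial glia-like cells. Mouse, litter, sex, preparation day and library cannot be told apart from the run.

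**Figure D4:**
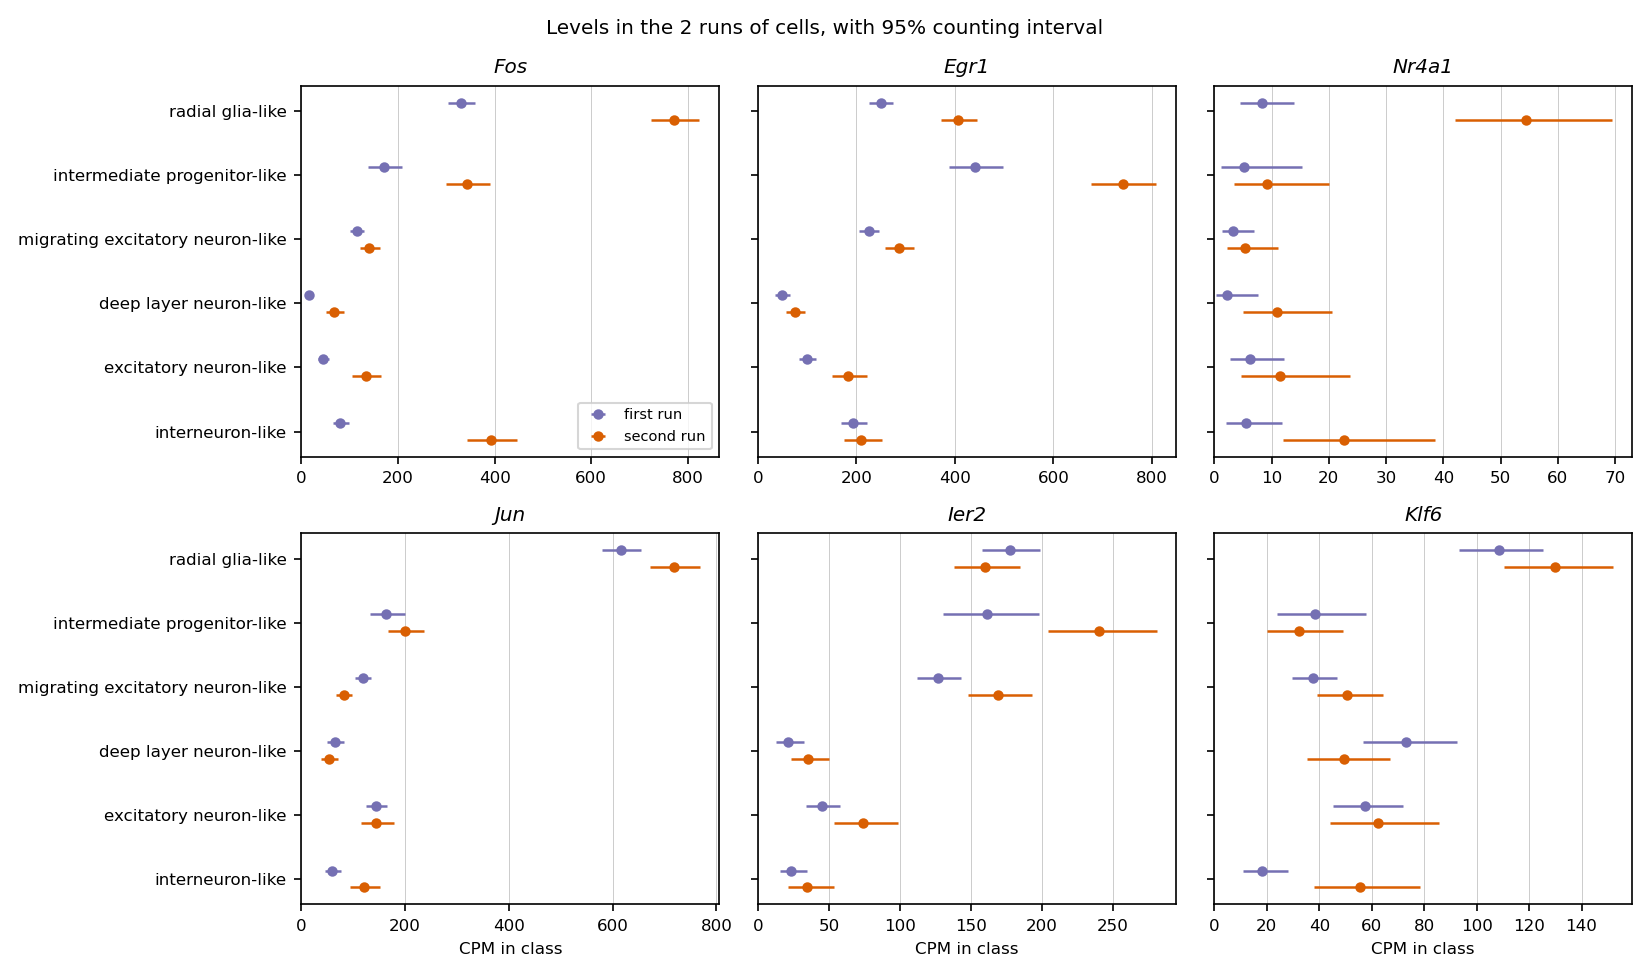
Levels of Fos, Egr1, Nr4a1, Jun, Ier2 and Klf6 in the first (purple) and second (orange) run of cells, as CPM on linear axes that differ between panels, in the 6 classes with at least 50 cells in each run, with exact Poisson 95% intervals. Fos is to the right in the second run in every class shown, at 773 against 330.3 CPM in radial glia-like cells, while Jun and Klf6 go both ways.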

How the data were processed

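The authors deposited 1 matrix of whole-number UMI counts (gene by cell) with lists of gene symbols and cell names. The build was mm10, per the submitters' processing notes, while the aligner, counter, annotation and cell filter were not stated in the sources used here. Gene positions came from GENCODE M21. No mitochondrial gene and no column other than the pooled one was present.

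The counts were scaled to 10000 per cell and log-transformed, and the 2000 most variable genes, 30 principal components and 15 neighbours gave Leiden clusters at resolution 1 (Python 3.11.15, scikit-learn 1.9.0, leidenalg 0.10.2). The 10 genes, the other gene lists, ribosomal protein genes, the Y-linked genes, Xist and Tsix were barred from these variable genes. A cluster took the name of the best of 22 marker lists if that list had a mean log2 fold of at least 0.5 and at least 3 raised markers, put at least 1 marker among the cluster's 20 leading genes, was not outnumbered by another list among the first 10, and the first gene marked no other type. Layer markers counted as excitatory neuron markers. The naming limits, and that nesting, were set after the marker scores had been seen. Cells over 10% globin were set apart. Doublets were kept, and removing the 289 cells with the highest doublet scores was an alternative. Summed counts per class gave CPM with exact Poisson intervals, ratios with exact conditional binomial intervals, and shares with Clopper-Pearson intervals, all at 95%. Where a class had 0 UMIs a limit of 3 counts over the class stood for it. A comparison took the genes whose UMIs in its classes summed to 50 or more, and called those past 1.5-fold. Because no cell can be assigned to a sample, there was no test and no p-value. The scripts were tested on simulated data.

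All 10 genes are named. From every other list the gene with the largest ratio in each direction could be named, and the likeness ranking kept the 10 genes of highest r among the 11223 found in at least 1% of cells. The genes and lists were chosen with earlier results of these data known. The comparisons of intermediate progenitor-like with migrating cells and of microglia-like with all other cells, and the values without microglia-like cells, were added after the data had been seen. Sst, Maf and Lhx6, and Sp8 clusters of interneurons and Junb at the progenitor step were singled out after their values were seen.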

Additional observations from a re-analysis of the deposited data

How the results depend on the processing

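No paired analysis was possible because no cell could be assigned to a sample. The count of 9 genes lower in excitatory neuron-like cells was 6 to 10 under every alternative run, and 6 lower in intermediate progenitor-like cells was 4 to 7. The 1 gene higher in the latter became 0 with 1000 features (Egr1 log2 ratio -0.25), 0 without the highest doublet scores, 0 at a 2-fold limit and 2 in the first run. For migrating cells, 3 lower became 5 with at least 10 UMIs and 1 in the first run, and 0 higher became 1 in the second. For interneuron-like cells, 2 higher became 1 at resolution 0.5, 0 at resolution 2 (Fos log2 ratio -0.12), 1 at a 2-fold limit, 4 with at least 10 UMIs, 0 in the first run, 1 in the second and 1 for cells with at least 2000 UMIs. There, 2 lower became 4 at resolution 2, 0 at a 2-fold limit and 0 in the second run. Between the runs, 2 higher became 1 at a 2-fold limit. The median r of 0.126 became 0.073 after thinning and 0.058 with cluster means removed, and stayed at 0.118 to 0.173 under Spearman's rank, Pearson residuals, each run alone, deeper cells and doublet removal. The share of cells with any of the genes was 28.4% at 500 UMIs and 69.2% with no thinning. Of the single-gene log2 ratios, 299 moved by less than their interval, 29 moved by more and 2 reversed. Of the levels by class 493 stayed within their interval and 177 moved, 76 of these in the second run alone and 44 in the first. Counts under about 50 UMIs limit Atf3, Klf4 and Nr4a1 in most classes.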

Other observations

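Among early genes outside the 10, the runs differed in more than 1 direction. Fosl2, a Fos relative, was at 17.8 CPM in the first run and 69.3 CPM in the second, 3.90-fold higher (3.34 to 4.55), and in the excitatory neuron-like cluster that it leads it was at 55.8 and 325 CPM. Npas4, an activity-dependent factor of neurons, was 3.15-fold higher in the second run on 36 against 68 UMIs, and Egr3, a relative of Egr1, was 2.13-fold lower on 135 against 38 UMIs. Of 22 other immediate early genes measured over all cells, 6 were higher in the second run and 2 lower, and of 19 feedback regulators 1 was higher and none lower. Of all 11713 genes measured, 5.25% were higher and 8.21% lower.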
